A study of Homo sapiens with 4 samples.

Results

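SGK1, SGK2, SGK3, PIM1, PIM2 and PIM3 are 2 small families of serine/threonine kinases that act on cell survival. They were chosen by name: a gene was included where a non-control probe of the array carries its symbol, which gave 6 of 25992 gene names, each with 1 probe printed as 1 spot. SGK1 and PIM2 belong to the genes that the study lists as induced by IL-1β and inhibited by Empa in both cell lines, and the other 4 are their paralogues. Gene expression was measured in human proximal tubular cells (HPTCs) on 4 one-color arrays, named here by the cell line and replicate number of their labels (HK-2 array 1 and 2, RPTEC/TERT1 array 1 and 2). HK-2 is a proximal tubular line immortalised with papillomavirus genes, and RPTEC/TERT1 is a proximal tubular line immortalised with telomerase. All cells were kept without serum and supplements for 24 h and then received IL-1β (10 ng/mL) together with Empa (500 nM), an inhibitor of the glucose transporter SGLT2, for 24 h under normoglycemic conditions. The growth medium of RPTEC/TERT1 cells contained hydrocortisone, which was withdrawn with the other supplements. Arrays of unstimulated cells, of IL-1β alone and of Empa alone were not analysed here, so the levels below describe the combined treatment and no effect of either agent.

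SGK kinases are relatives of AKT that are switched on by PI3K, PDPK1 and mTORC2. SGK1 is transcribed within a short time after glucocorticoids, mineralocorticoids, cell shrinkage or cytokines, and in the renal tubule it keeps sodium channels and transporters at the membrane by phosphorylating the ubiquitin ligase NEDD4L. PIM kinases lack a regulatory domain and are active once made, so that their amount is set largely by transcription, mainly through JAK-STAT and NF-κB signaling, and by protein turnover. SGK and PIM kinases share with AKT some substrates that govern apoptosis and growth.

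The level of a gene is given as the log2 of its background-subtracted signal over the 75th percentile of the same array. A level of 0 thus equals that percentile, and 1 unit is a 2-fold difference. The sequences of the probes are shown first, since every value rests on a single 60-base probe per gene. The first 30 bases of 5 of the probes are given 5′ to 3′, with no part in capitals.

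SGK1 probe: gtttttatggaccaatgccccagttgtcag
SGK2 probe: gaattaccttcagctgctaggaagagcgac
PIM1 probe: gcctgctggttttatctgagtgaaatactg
PIM2 probe: ggtgaggggaccctactttgttatcccaag
PIM3 probe: agcctgagcgtttaatttattcagtacctg

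In the array design (GRCh37), the SGK1 probe lies at chr6:134490656-134490715 on the minus strand and the SGK2 probe at chr20:42213703-42213762 on the plus strand. The SGK3 probe lies at chr8:67773851-67773910 on the plus strand, and the transcripts listed for it also include the readthrough gene C8orf44-SGK3, so the SGK3 signal cannot be assigned to one of the 2 genes. The PIM1 probe lies at chr6:37143102-37143161 (plus strand), the PIM2 probe at chrX:48770771-48770830 (minus strand) and the PIM3 probe at chr22:50357570-50357629 (plus strand). Within each family the probes were distinct: over their 60 bases, the best ungapped alignment between paralogues held 20 to 22 identical bases, and no other probe on the array had the same sequence as one of the 6.

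The promoters of the PIM genes are shown because PIM1 and PIM2 were high on the same 2 of the 4 arrays and PIM3 was not. The 250 bases before the start of each gene are taken from RefSeq (GRCh38.p14), at chr6:37169902-37170151 on the plus strand for PIM1, chrX:48919025-48919274 on the minus strand for PIM2 and chr22:49960522-49960771 on the plus strand for PIM3. Capitals mark the GC box (GGGCGG on either strand), the letters bound by Sp1-type factors.

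PIM1 promoter: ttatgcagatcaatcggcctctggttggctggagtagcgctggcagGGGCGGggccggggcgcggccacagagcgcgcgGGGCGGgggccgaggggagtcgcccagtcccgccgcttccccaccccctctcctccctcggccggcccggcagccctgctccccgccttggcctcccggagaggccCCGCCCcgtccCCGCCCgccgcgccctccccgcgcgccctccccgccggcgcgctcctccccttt
PIM2 promoter: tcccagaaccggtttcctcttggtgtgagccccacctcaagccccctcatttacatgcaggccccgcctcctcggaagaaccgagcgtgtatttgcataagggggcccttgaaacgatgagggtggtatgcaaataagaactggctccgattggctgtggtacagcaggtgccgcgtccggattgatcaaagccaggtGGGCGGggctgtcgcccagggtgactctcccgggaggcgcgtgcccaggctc
PIM3 promoter: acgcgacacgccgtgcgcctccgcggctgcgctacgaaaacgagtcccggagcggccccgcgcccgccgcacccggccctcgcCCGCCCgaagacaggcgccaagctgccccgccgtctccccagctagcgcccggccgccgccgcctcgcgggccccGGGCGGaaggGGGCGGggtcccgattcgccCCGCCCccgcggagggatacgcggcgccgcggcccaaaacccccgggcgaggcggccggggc

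The GC box was found 4 times before PIM1, 1 time before PIM2 and 4 times before PIM3, and 42.6% of 35116 promoters of this length held it at least once. The letters of a STAT site (TTCNNNGAA, 6.57% of promoters), the kappaB site (9.96%) and the steroid receptor half-site AGAACA (12.4%) were searched on both strands and were not in these 3 windows. SGK1 has 3 annotated starts, of which the last in the direction of transcription had 6 GC boxes and the other two had none, and none of the 3 windows held one of the other motifs. SGK2 and SGK3 had no entry. The matches are a description of the letters.

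Before the levels of the single genes, the 4 arrays were compared with each other, since they went against their labels. Across 17928 detected genes, the level of HK-2 array 1 differed from that of RPTEC/TERT1 array 2 by a median of 0.21 (log2, absolute value; Pearson r = 0.980 across genes), and HK-2 array 2 from RPTEC/TERT1 array 1 by 0.30 (r = 0.976). The 2 arrays labelled HK-2 differed by 0.64 (r = 0.865) and the 2 labelled RPTEC/TERT1 by 0.75 (r = 0.855). Genes are not independent replicates, and the points share the array. The scan dates followed the array number, with both arrays 1 read on one date and both arrays 2 on another. The proximal tubule markers moved with the same pairs: of 21 markers, 10 were well above background on all 4 arrays and 5, among them CUBN, SLC22A6, SLC7A9 and HNF4A, on none, and the summed level of the 16 detected ones was -23.3 on HK-2 array 1, -49.3 on HK-2 array 2, -48.7 on RPTEC/TERT1 array 1 and -22.2 on RPTEC/TERT1 array 2. The labels were kept as given, every gene is described by its value on each array, and the part of the labels and of the markers in the results was not tested.

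All 6 kinases were detected, and 5 of them were well above background on all 4 arrays, which held for 53% of all gene names. SGK2 missed this on RPTEC/TERT1 array 1 only. No spot was saturated or marked as an outlier. Probes differ in how strongly they bind, so the height of one gene is not set against that of another. Fewer cells of a kind and less RNA per cell cannot be told apart in these bulk samples.

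**Figure D1:**
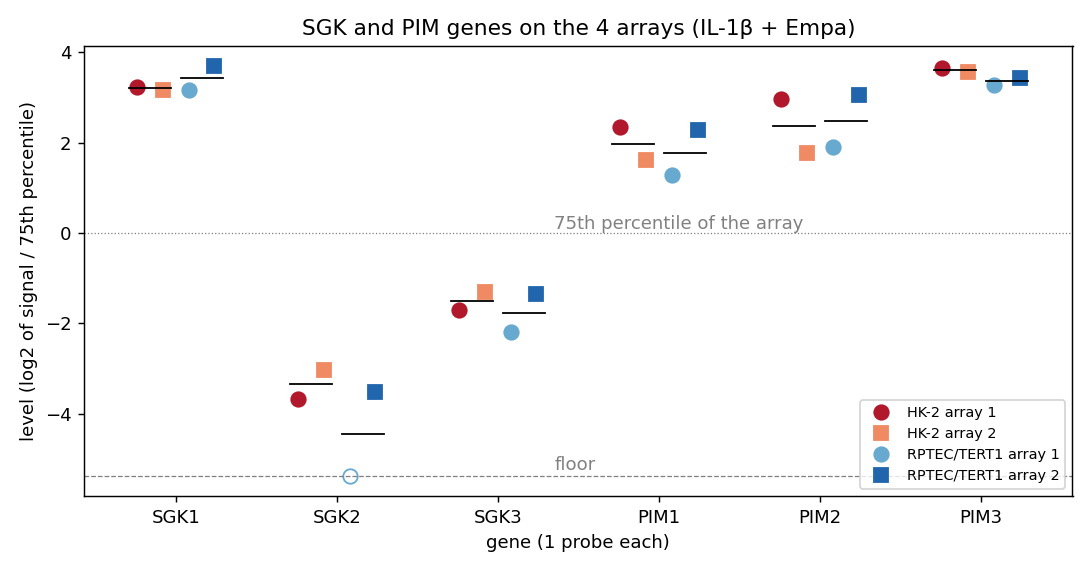
Level of each SGK and PIM gene on the 4 arrays, in log2 of the signal over the 75th percentile of the array (dotted line at 0). Each symbol is 1 array, the short black lines are the means of the 2 arrays of a label, and the open symbol is the SGK2 spot at the floor of -5.37. PIM1 and PIM2 split the arrays within each label, from 1.28 to 2.34 and from 1.78 to 3.06, whereas PIM3 stayed between 3.29 and 3.65.

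SGK1, the kinase of sodium transport and the steroid response, was bright on all 4 arrays. On the HK-2 arrays its signal was 9.46 (array 1) and 9.04 (array 2) times the 75th percentile, and on those of RPTEC/TERT1 9.03 (array 1) and 12.9 (array 2) times. The first 3 arrays were nearly equal and RPTEC/TERT1 array 2 was above them, so that the labels overlapped. On the log2 scale the levels were 3.24, 3.18, 3.17 and 3.69. SGK1 was brighter than 94.2% to 95.2% of the spots of each array, and its whole range over the arrays was 0.51, or 1.43-fold. Of the tested genes, 16.6% had a smaller range. In the order of its levels, the lowest 3 arrays lay within 0.07 of each other, below the median SD of repeated spots of a probe on an array (0.0818 to 0.139, a technical spread), and RPTEC/TERT1 array 2 lay 0.45 above the next array. The closeness of HK-2 array 1 to the other low arrays depended on how the background was corrected, as given below.

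SGK2, a paralogue known mainly from liver, kidney and pancreas, was dim. On the HK-2 arrays its signal was 7.87% (array 1) and 12.3% (array 2) of the 75th percentile, and on those of RPTEC/TERT1 2.29% (array 1) and 8.79% (array 2). The RPTEC/TERT1 array 1 spot was not well above background and was set to the floor of -5.37, which is a bound, and the other 3 arrays had levels of -3.67, -3.03 and -3.51. Both HK-2 values enclosed that of RPTEC/TERT1 array 2, so the labels overlapped on the arrays where SGK2 was measured. The spot was 2.55 to 8.92 times the lowest signal called well above background and brighter than 34.0% to 50.5% of the spots.

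SGK3, which binds endosomal membranes through a PX domain, was of intermediate signal for its array. On the HK-2 arrays its signal was 30.7% (array 1) and 40.7% (array 2) of the 75th percentile, and on those of RPTEC/TERT1 22.1% (array 1) and 39.0% (array 2). The levels were -1.70, -1.30, -2.18 and -1.36, with RPTEC/TERT1 array 1 lowest and the labels overlapping. HK-2 array 2 and RPTEC/TERT1 array 2 differed by 0.06, less than the spread of repeated spots, while the steps to HK-2 array 1 and to RPTEC/TERT1 array 1 exceeded it.

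PIM1, the founding member of its family and a target of STAT factors, was clearly expressed and varied more than SGK1. On the HK-2 arrays its signal was 5.07 (array 1) and 3.07 (array 2) times the 75th percentile, and on those of RPTEC/TERT1 2.42 (array 1) and 4.83 (array 2) times. One array of each label was high and the other low, and the labels overlapped. The levels were 2.34, 1.62, 1.28 and 2.27, a range of 1.06 (2.09-fold), with 50.8% of the tested genes ranging less. The 2 high arrays differed by 0.07, within the spread of repeated spots.

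PIM2, which was among the genes of interest of the study and promotes translation and survival, split the arrays the same way over a wider range. On the HK-2 arrays its signal was 7.76 (array 1) and 3.42 (array 2) times the 75th percentile, and on those of RPTEC/TERT1 3.76 (array 1) and 8.35 (array 2) times. HK-2 array 1 and RPTEC/TERT1 array 2 were high and the other two were low, so each label held 1 high and 1 low array. The levels were 2.96, 1.78, 1.91 and 3.06, a range of 1.29 (2.44-fold). The 2 high arrays differed by 0.11 and the 2 low ones by 0.13, both inside the range of the spread of repeated spots, and 61.3% of tested genes had a smaller range.

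PIM3, a paralogue linked to growth control, was bright and the least variable of the 6. On the HK-2 arrays its signal was 12.5 (array 1) and 11.8 (array 2) times the 75th percentile, and on those of RPTEC/TERT1 9.76 (array 1) and 10.8 (array 2) times. Both HK-2 arrays were above both RPTEC/TERT1 arrays. The levels were 3.65, 3.56, 3.29 and 3.44, a range of 0.36 (1.28-fold), and 8.03% of tested genes ranged less. The gap between HK-2 array 2 and RPTEC/TERT1 array 2 was 0.13, which is inside the range of the spread of repeated spots.

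The labelled cell lines were then compared over the 16468 genes called well above background on 2 or more arrays. None of the 6 kinases passed the test (limma, Benjamini-Hochberg adjusted p = 1 for each), against 0% of all genes, and 0.14% of genes had an unadjusted p under 0.05. PIM3 was the 1 member of 6 whose labels did not overlap, which held for 7.17% of all genes in either direction (4.36% with HK-2 higher and 2.81% with HK-2 lower). The PIM3 labels overlapped under normexp correction, a model-based background subtraction (a difference of -0.25), and in the log2 values of the series table (0.13), but not after quantile normalization (0.29) or under normexp correction without 9 spots of bright local background on HK-2 array 1 (0.27). The intervals were wide with 2 arrays per label. Arrays of a label also differed more (medians of 0.64 and 0.75) than those of 2 pairs across the labels (0.21 and 0.30). The test takes its error from within the labels, so few genes could pass it, and 0% of all genes is a weak background. It cannot show that the lines express these kinases alike.

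For SGK1 the mean level was 3.21 ± 0.047 (SD, n = 2) in HK-2 and 3.43 ± 0.36 (n = 2) in RPTEC/TERT1, a difference of -0.22 with a 95% confidence interval of -1.45 to 1.01. For PIM2 it was 2.37 ± 0.83 in HK-2 and 2.49 ± 0.81 in RPTEC/TERT1, a difference of -0.12 (-2.02 to 1.78). For PIM3 it was 3.61 ± 0.059 in HK-2 and 3.36 ± 0.11 in RPTEC/TERT1, a difference of 0.24 (-0.90 to 1.39). The SD within a label was thus larger for PIM2 than for PIM3 in both lines with the processed signal. Under normexp correction this turned in HK-2, where array 1 and 2 were at 1.71 and 1.61 for PIM2 and at 2.37 and 3.39 for PIM3. PIM1 differed by 0.21 (SE 0.59), SGK3 by 0.27 (SE 0.52) and SGK2 by 1.09 (SE 0.79), the last with 1 of its 4 values at the floor. The median difference of the 6 genes was 0.23, beside 0.017 over all tested genes. Without RPTEC/TERT1 array 1 the SGK2 difference was 0.16, and without RPTEC/TERT1 array 2 it was 2.02. The directions for SGK1, SGK3, PIM1 and PIM2 each turned when 1 array was left out, PIM2 reaching 0.47 without HK-2 array 2 and 0.46 without RPTEC/TERT1 array 2.

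**Figure D2:**
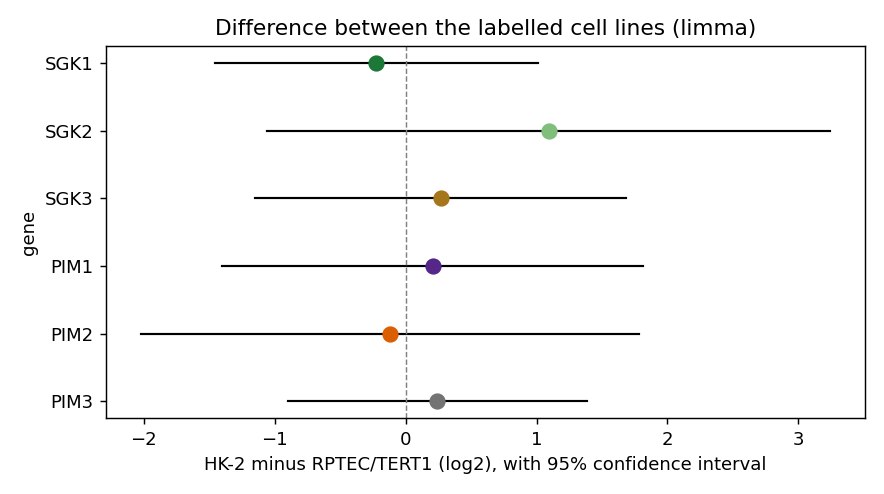
Difference in level between the arrays labelled HK-2 and RPTEC/TERT1 (HK-2 minus RPTEC/TERT1, log2) for each gene. Points are the limma estimates from 2 arrays per label and bars their 95% confidence intervals. Every interval includes 0, and that of SGK2, from -1.05 to 3.24, is the widest.

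PIM2 and PIM1 differed more between the 2 arrays of a label than between the means of the labels. PIM2 was 2.27-fold higher on HK-2 array 1 than on HK-2 array 2 and 2.22-fold lower on RPTEC/TERT1 array 1 than on RPTEC/TERT1 array 2. Across the labels it differed 1.08-fold between HK-2 array 1 and RPTEC/TERT1 array 2, and 1.10-fold between HK-2 array 2 and RPTEC/TERT1 array 1. PIM1 ran in the same directions within the labels, 1.65-fold in HK-2 and 1.99-fold in RPTEC/TERT1, and differed 1.05-fold and 1.27-fold in the same pairs across them. Each of these sets 1 array against 1 array and has no replicate check. A difference over 2-fold was common between arrays of a label: 33% of detected genes passed it within HK-2, where 1 of the 6 members (PIM2) did, and 38.7% within RPTEC/TERT1, where 2 of 6 (SGK2 and PIM2) did. In the 2 same-numbered pairs, 35% of genes passed it between the 2 arrays numbered 1, with 3 of 6 members (SGK2, PIM1 and PIM2), and 32.3% between the 2 numbered 2, with 1 of 6 (PIM2). The members' counts lay around these backgrounds. These shares and counts, and those of the gene lists below, are from the processed signal and depended on it. Within HK-2 the share was 64.2% under normexp correction, 52.7% in the series table and 22.2% under normexp correction without the bright spots. Within RPTEC/TERT1 it was 22.5%, 20.9% and 22.5%, and SGK2 differed there by -0.54, -0.40 and -0.54.

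With the processed signal, large differences were rare in the other 2 pairs. Between HK-2 array 1 and RPTEC/TERT1 array 2, 6.14% of genes and none of the 6 members passed 2-fold, the largest member difference being that of SGK1 (-0.45, or 1.36-fold), and 23.2% of genes differed more. Between HK-2 array 2 and RPTEC/TERT1 array 1, 7.52% of genes passed it and 1 of 6 members, SGK2, whose RPTEC/TERT1 value is the bound at the floor. SGK3 differed there by 0.88 (1.84-fold), with 10.1% of genes differing more. RPTEC/TERT1 array 1 was thus the lowest array for all of SGK1, SGK2, SGK3, PIM1 and PIM3, though for SGK1 by less than the spread of repeated spots. The share past 2-fold between HK-2 array 1 and RPTEC/TERT1 array 2 depended on the processing. It was 5.82% after quantile normalization, 38.2% in the series table, 60.2% under normexp correction and 1.90% under it without the bright spots. PIM1 and PIM2 differed there by -0.39 and -0.45 in the series table, and by -0.99 and -1.09 under normexp correction. In the other pair the share was 3.23% to 7.86% under the same settings.

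**Figure D3:**
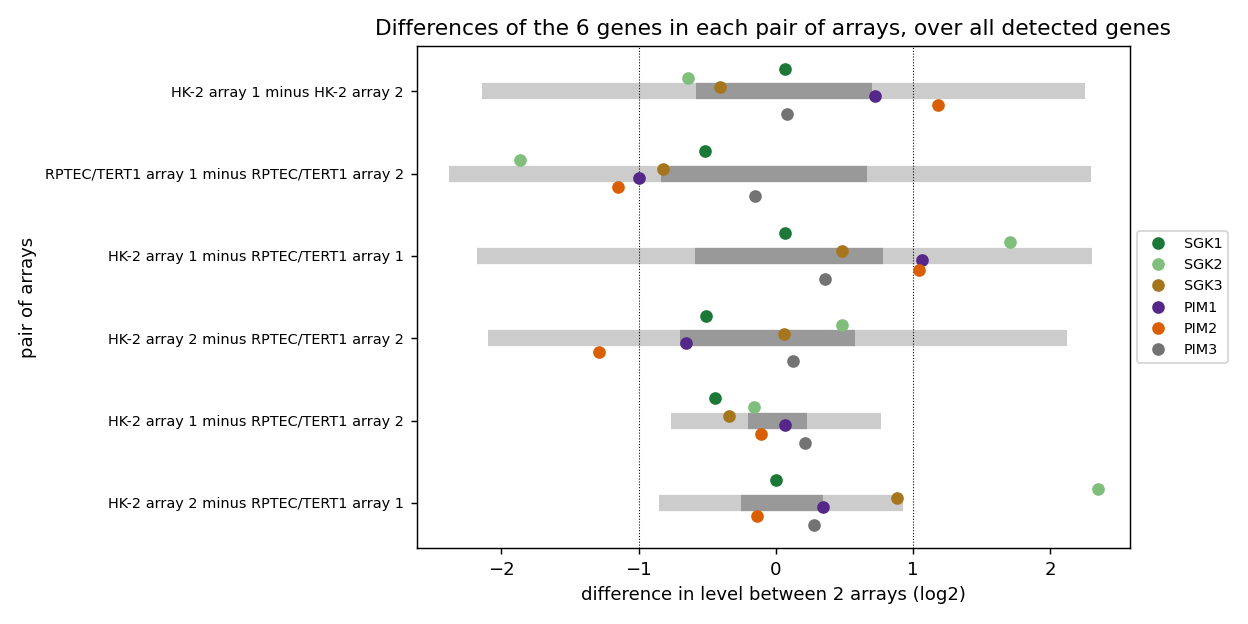
Difference in level of the 6 genes in each pair of arrays (log2), with dark bars from the 25th to the 75th and light bars from the 5th to the 95th percentile of all detected genes. Dotted lines mark a 2-fold difference, and points are single genes. PIM2 passes the lines in the first 4 pairs and lies at -0.11 and -0.13 in the last 2, where the bars are narrow.

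The contrast of PIM1 and PIM2 within HK-2 depended on how the background was corrected, and that within RPTEC/TERT1 did not. Within HK-2, PIM2 was higher on array 1 by 1.18 with the processed signal, 1.10 after quantile normalization, 0.70 in the log2 values of the series table and 0.097 with normexp correction, and PIM1 by 0.72, 0.64, 0.20 and -0.39. HK-2 array 1 carried 9 spots with a local background above 60, up to 48831, and the highest on any other array was 54. When these 9 spots were left out of the normexp fit, an alternative chosen after seeing the data, the differences were 1.11 for PIM2 and 0.58 for PIM1. On the RPTEC/TERT1 arrays, no spot had a local background above 60. There PIM2 was lower on array 1 by 1.07 to 1.15 on the log2 scale under the same 5 settings, and PIM1 by 0.94 to 1.03.

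**Figure D4:**
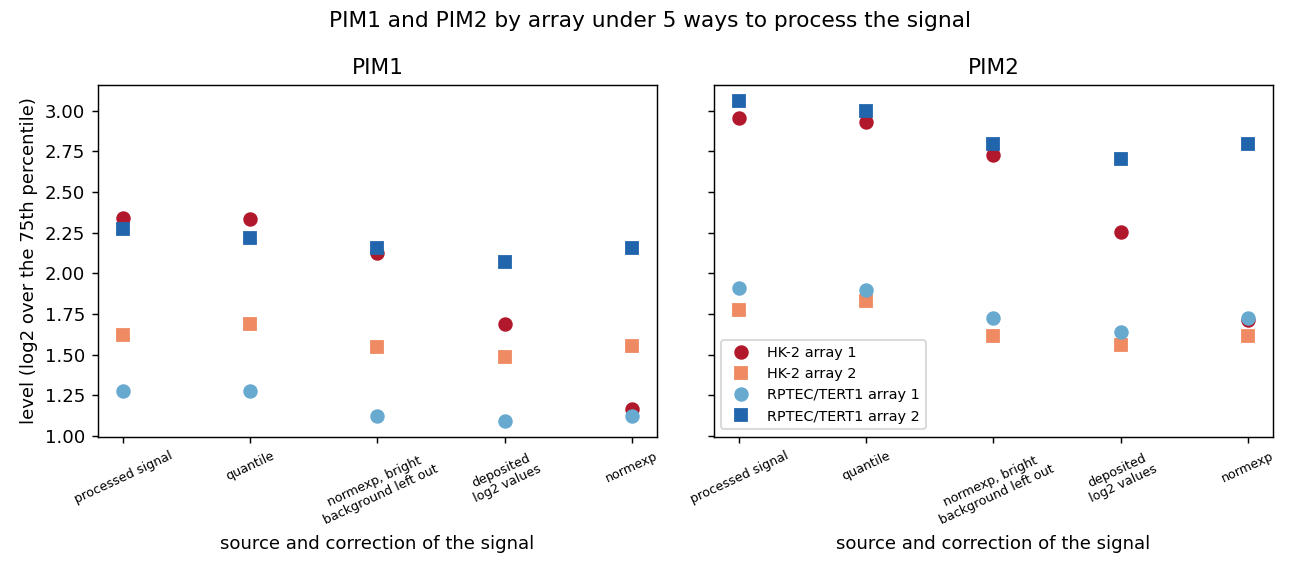
Level of PIM1 (left) and PIM2 (right) on each array, in log2 over the 75th percentile, under 5 ways to process the signal. Symbols are single arrays. The 2 RPTEC/TERT1 arrays keep their distance in all 5, and HK-2 array 1 falls to 1.16 for PIM1 and 1.71 for PIM2 under normexp correction with all spots.

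Genes with the most similar course over the 4 arrays were sought among 13593 genes well above background on every array, by the root mean square difference of levels centred on each gene's mean. For PIM1 the nearest were ADSS (0.019), an enzyme of purine synthesis, and the transcript AK092494 (0.029). For PIM2 they were CDIPT (0.020), which makes phosphatidylinositol, and TBC1D17 (0.021), a Rab GTPase-activating protein. PIM1 and PIM2 lay 0.24 apart, with 1897 genes nearer to PIM1 than PIM2 was, and 1255 nearer to PIM2 than PIM1 was, so the paralogues shared the split of the arrays but were not close neighbors. For SGK1 the nearest were C14orf37 (0.034) and SIGLEC15 (0.040), for SGK3 ATP1B3 (0.035) and PDCD5 (0.037), and for PIM3 LOC101927919 (0.020) and KIAA1324L (0.021). Between 67 (SGK3) and 257 (PIM3) genes lay within 0.1 of these members. With 4 arrays such likeness is easily met, and SGK2 was left out because 1 of its values is a bound.

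The genes around these kinases were examined as 6 lists of 65 genes, of which 64 (all but ERRFI1) had values and 61 could be tested. None passed the test between the labelled lines (limma, Benjamini-Hochberg; 0 of 61 at an unadjusted p under 0.05), and their median difference was 0.026. The 2 genes with the widest range in each list are given by name, except for the AKT kinases, where 1 is given.

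Of the kinases and phosphatases upstream of SGK, 9 of 10 were well above background on all 4 arrays, and 2 of 10 passed 2-fold within HK-2 (33% of all detected genes did) and 2 of 10 within RPTEC/TERT1 (38.7% of all). PIK3R1, the regulatory subunit of PI3K, had levels of -0.50 and -2.28 on HK-2 and of -1.80 and -0.75 on RPTEC/TERT1 (array 1 and 2 in each). INPP4B, a phosphoinositide phosphatase, had -4.62, where it was not well above background, and -1.66 on HK-2, and -2.82 and -3.29 on RPTEC/TERT1, and a second INPP4B probe was not well above background on any array. PIK3R1 was high on the same 2 arrays as PIM2, and INPP4B was not.

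The steroid list held 10 measured genes, and 4 of 10 passed 2-fold within each label, near the shares of all detected genes (33% within HK-2 and 38.7% within RPTEC/TERT1). FKBP5, a glucocorticoid-induced chaperone of the steroid receptor, had levels of -2.04 and -0.25 on HK-2 and of 0.07 and -2.24 on RPTEC/TERT1. HSD11B1, which regenerates active glucocorticoid, had -2.44 on HK-2 array 1 and -2.49 on RPTEC/TERT1 array 2 and was at the floor on the other two arrays. FKBP5 and HSD11B1 thus split the arrays in opposite directions. SGK1, itself induced by glucocorticoids, stayed within 0.07 on 3 of the 4 arrays with the processed signal. On those arrays (HK-2 array 1 and 2, RPTEC/TERT1 array 1) it was at 2.81, 3.05 and 3.01 in the series table. Under normexp correction it was at 2.21, 3.11 and 3.08, and without the bright spots at 3.26, 3.11 and 3.08.

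Of 16 SGK substrates, transport targets and ubiquitin ligases, 11 were well above background on all arrays. The sodium channel subunits SCNN1B and SCNN1G and the sodium/proton exchanger SLC9A3 were not well above background on any. Among the 13 detected, 4 passed 2-fold within HK-2 and 5 within RPTEC/TERT1, also near those 33% and 38.7%. FOXO1, a transcription factor held in the cytoplasm by AKT and SGK, had levels of -0.35 and -4.97 on HK-2 and of -4.84 and -0.82 on RPTEC/TERT1. SCNN1A, the third channel subunit, ran the other way with -4.84 (not well above background) and -1.22 on HK-2 and -1.28 and -4.11 on RPTEC/TERT1. Among the AKT kinases, AKT1, which shares substrates with SGK and PIM, ranged from 1.58 to 1.96.

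The 13 JAK-STAT and NF-κB genes upstream of PIM were all well above background on every array. Within HK-2, 9 of 13 passed 2-fold (33% of all detected genes did), 8 of them higher on array 1, and within RPTEC/TERT1 7 of 13 did (38.7% of all), 6 of them lower on array 1. None of the 13 passed it between HK-2 array 1 and RPTEC/TERT1 array 2 (6.14% of all detected genes did). The same held between HK-2 array 2 and RPTEC/TERT1 array 1 (7.52% of all), so the counts in these cross-label pairs were near the background. The shares within the labels were higher than the background, 69.2% against 33% in HK-2 and 53.8% against 38.7% in RPTEC/TERT1. The list was chosen with earlier results known, and this excess was not tested. SOCS1, the feedback inhibitor of JAK, had levels of 0.46 and -2.49 on HK-2 and of -2.56 and 0.29 on RPTEC/TERT1. STAT3, a factor that drives PIM1 transcription, had -0.24 and -2.72 on HK-2 and -2.10 and -0.73 on RPTEC/TERT1, and its 2 probes agreed in direction. Both were high on the arrays where PIM1 and PIM2 were high. STAT5A passed 2-fold in the other direction within both labels, with -3.09 and -2.00 on HK-2 and -2.00 and -3.45 on RPTEC/TERT1. Whether any of these genes acts on PIM1 or PIM2 here was not tested.

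Of 12 PIM substrates, 6 passed 2-fold within each label (33% and 38.7% of all detected genes). None did in the 2 cross-label pairs named above, where 6.14% and 7.52% of all detected genes did. CXCR4, a chemokine receptor whose surface level PIM1 regulates, had levels of 1.84 on HK-2 array 1 and 1.56 on RPTEC/TERT1 array 2 and was at the floor on the other two arrays. CDC25C, a phosphatase of mitotic entry, was the reverse, with -0.25 on HK-2 array 2, -0.53 on RPTEC/TERT1 array 1 and the floor on the others. The substrates therefore differed in both directions, 2 above and 4 below on HK-2 array 1 against array 2. LUM, a fibroblast marker, was at the floor on HK-2 array 1 and RPTEC/TERT1 array 2 and at 0.23 and -0.30 on the other two, and 4 of the 7 fibroblast markers (COL1A2, COL3A1, PDGFRA and PDGFRB) were not well above background on any array. Their part in these differences was not tested.

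**Figure D5:**
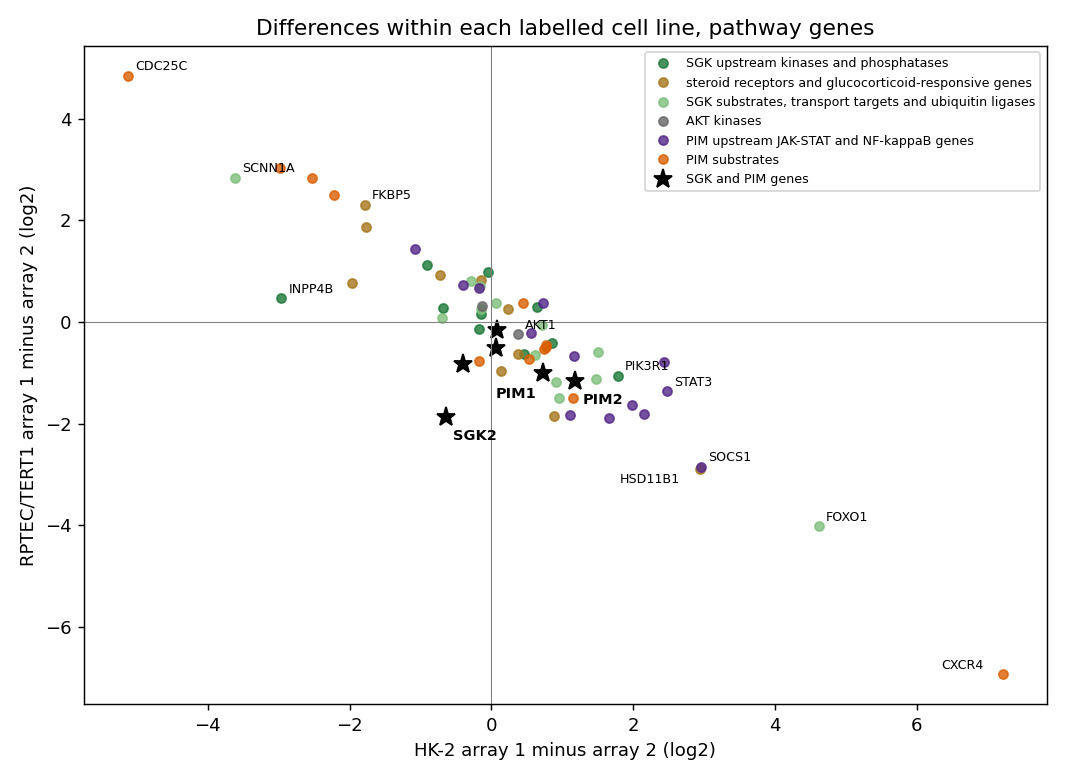
Difference between the 2 HK-2 arrays (x axis) and between the 2 RPTEC/TERT1 arrays (y axis), array 1 minus array 2 in log2, for detected genes of the 6 lists (circles) and the 6 kinases (stars). Most list genes lie in the upper left or lower right, where the labels run in opposite directions. This was common on the arrays, with a correlation of -0.810 across 16468 tested genes. PIM1, PIM2 (1.18, -1.15), SGK1 (0.07, -0.51) and PIM3 (0.08, -0.15) lie there too. SGK2 (-0.64, -1.86) and SGK3 (-0.40, -0.82) do not with the processed signal shown here. In the log2 values of the series table SGK2 (1.55, -0.40) and SGK3 (0.40, -0.59) do, as under normexp correction (2.15, -0.54 and 0.82, -0.66). Under normexp correction without the bright spots SGK2 (0.14, -0.54) does and SGK3 (-0.18, -0.66) does not.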

How the data were processed

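Total RNA of HK-2 and RPTEC/TERT1 cells, 2 biological samples each per the methods, was hybridised to Agilent one-color arrays. The authors deposited the intensity of each spot as Agilent Feature Extraction 9.5.3.1 gives it, whose processed signal is background-subtracted and not scaled between arrays. A series table of log2 values was deposited too. Its normalization was not stated in the methods or labels, and it served as an alternative. RNA kits differ between the methods (innuPREP) and the labels (RNeasy).

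Control and outlier spots were left out. Each signal was scaled to its array's 75th percentile (393 and 748 for HK-2 array 1 and 2, 488 and 429 for RPTEC/TERT1 array 1 and 2), floored at 0.0242 of it and taken to log2. On the 4 arrays 59.2% to 64.9% of 43118 spots were well above background, and the number of arrays limits the precision. Probes of a gene that were detected on any array were averaged. The labelled lines were compared by limma 3.58.1 in R 4.3.3 (lmFit, eBayes) over 16468 genes, with Benjamini-Hochberg adjustment at 0.05. The step was tested on simulated data with a smaller spread within a label than here and without crossed labels. Such data cannot show how often the test would call a gene on these arrays. Named genes are the 6 kinases, the 2 genes most like each member measured on all arrays, and the 2 genes of widest range in each pathway list, with genes not above background and cell type markers named beside them. STAT5A is named as the JAK-STAT gene past 2-fold in the other direction. Some genes of these lists are not reported here. The members and lists were chosen with earlier results of these data known. Alternatives were normexp correction with an offset of 50, the deposited log2 values, quantile normalization, no filter on dim probes, a filter on all 4 arrays, the brightest probe, outlier spots kept, a replicate block and leaving out each array. Symbols come from the array design, and all 6 matched the RefSeq table of GRCh38.p14. The 4 arrays were on 4 different slides, so effects of the slide and of the array cannot be separated.

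Replicate numbers match the scan dates in both cell lines. Deviations of same-numbered arrays from the means of their labels had a correlation of -0.810 across 16468 genes, so the numbers were not taken to pair the arrays.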

Additional observations from a re-analysis of the deposited data

How the results depend on the processing

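The number of genes that differed between the labelled lines was 0 under each of 14 alternatives, for all genes, the 6 kinases and the pathway lists, while the genes with a p under 0.05 before adjustment numbered 3 to 245. The replicate block gave 0 calls and 5 such genes. Numbers crossed between the labels, an alternative added after seeing the data, gave 0 calls and 183 such genes.

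When 1 array was left out, the difference (HK-2 minus RPTEC/TERT1, log2) ranged from -0.48 to 0.035 for SGK1, 0.16 to 2.02 for SGK2, -0.14 to 0.68 for SGK3, -0.29 to 0.70 for PIM1, -0.71 to 0.47 for PIM2 and 0.17 to 0.32 for PIM3. A label then held 1 array, assumed to vary like the other label. Normexp correction turned the differences of PIM1 (-0.28) and PIM3 (-0.25), the PIM1 difference between the HK-2 arrays (-0.39) and the PIM2 difference between the 2 arrays numbered 1 (-0.011). With the spots of bright background left out, these 4 differences kept their direction. Between the HK-2 arrays (array 1 minus array 2), normexp correction also turned the other members but PIM2. SGK1 went from 0.067 to -0.90, SGK2 from -0.64 to 2.15, SGK3 from -0.40 to 0.82 and PIM3 from 0.083 to -1.03. Without the bright spots SGK1 (0.15), SGK3 (-0.18) and PIM3 (0.029) kept their direction, and SGK2 (0.14) did not.

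The mean level over the 4 arrays moved by more than their SD for SGK1 (3.32 to 3.02), SGK2 (-3.89 to -2.03), SGK3 (-1.63 to -0.97) and PIM3 (3.48 to 3.00) under normexp correction. In the deposited log2 values it was -2.14 for SGK2, -1.03 for SGK3 and 3.06 for PIM3, and -2.53, -1.21 and 3.27 under normexp correction without the bright spots. SGK2 lies near background, where its level depends on the correction.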
